A study of Homo sapiens with 3 samples.

Results

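The proteins of the small (40S) subunit of the cytosolic ribosome are encoded by RPSA, FAU and the genes whose symbol is RPS and a number, with or without a final A or X. This rule found 32 of the 63241 genes in the table of ribosome footprints, and all 32 were among the 19820 genes abundant enough to test. Ribosome profiling (Ribo-seq) counts the stretches of mRNA that ribosomes shield from a nuclease, so a gene's footprint count reflects how many ribosomes sat on its mRNA. The cells were HEK293T, derived from human embryonic kidney, in which the large T antigen of SV40 binds p53. They expressed a construct of wild-type (WT) p53, G245S p53 or R273H p53, the last 2 being hotspot changes in the domain with which this transcription factor binds DNA. Each group had 3 dishes, all given cycloheximide (2 min, and 100 μg/mL in the wash) to hold ribosomes in place, and lysates were digested with micrococcal nuclease (3 U per μg RNA, 30 min) before the monosomes were collected. Per the methods of the study, the stable lines were made with lentivirus and kept as puromycin-selected populations. The labels disagree on whether expression was stable or transient, and for both mutants they list treatment with wild-type p53, so the titles of the samples were used to form the groups. The endogenous p53 and the large T antigen were common to all groups, and cells without a construct were not analysed here.

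The small subunit reads the mRNA: it binds initiation factors, scans to the start codon and holds the codon and the tRNA anticodon together in its decoding center. Its proteins fall into those of the head, which swivels over the mRNA channel, and those of the body and platform beneath it. Ribosomal proteins are needed in equal numbers, and excess copies are degraded. Their mRNAs are known for a 5′ terminal oligopyrimidine (TOP) tract, a cytosine and a run of pyrimidines at the cap, through which growth signals from mTOR set their translation together. When ribosome assembly fails, free ribosomal proteins can bind MDM2, the ubiquitin ligase that degrades p53. Inherited loss of 1 copy of several of these genes causes Diamond-Blackfan anaemia, a failure of red cell production.

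The tract is shown for the members whose footprints fell or rose the most, and for RPS15 and RPS4X, where none begins within 5 bases of the annotated start. Each line is 30 bases of the sense strand from RefSeq (GRCh38.p14), with 14 bases before the annotated transcription start and 16 from it. The windows are FAU at chr11:65122119-65122148 (minus strand), RPS19 at chr19:41860241-41860270 (plus), RPS18 at chr6:33272061-33272090 (plus), RPS14 at chr5:150449724-150449753 (minus), RPS3A at chr4:151099614-151099643 (plus), RPS7 at chr2:3575246-3575275 (plus), RPS15 at chr19:1438382-1438411 (plus) and RPS4X at chrX:72277233-72277262 (minus). Capitals mark the tract, defined as C followed by at least 4 bases that are each C or T. Its first base was sought only within 5 bases of the annotated start.
FAU: gccctcgcttcttcCTCTTTCTCgactcca
RPS19: gaaaccccgtcgttCCCTTTCCCCTggctg
RPS18: gcgtcacttccgctCTCTCTTCCacaggag
RPS14: cgccccctcccactCTCTCTTTCCggtgtg
RPS3A: gactcccacttccgCCCTTTTggctctctg
RPS7: tttccgccctCCTCCTCgcgctgtttccgc
RPS15: gcgcaggcgcggaccaaagcgatctcttct
RPS4X: cagtctccagccccaatttctacgcgcacc

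A RefSeq window was at hand for 25 of the 32 members. A tract on the sense strand began exactly at the annotated start in 19 of them (76.0%), against 5.1% of the 27305 genes with such a window. Counting starts within 5 bases, 21 members (84.0%) had one, against 25.2% of all genes. RPS7 and RPS28 joined the list. In RPS7 the tract is marked from 4 bases before the start, the first C within reach, and its run of pyrimidines extends further upstream. Tracts at the start were 6 (RPS13, RPS25 and RPS27A) to 14 bases long (RPS24), with a median of 9. RPS15, RPS26, RPS29 and RPS4X had none beginning within 5 bases of the annotated start. The windows of RPS15 and RPS26 hold such a run further downstream, which was not counted.

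The libraries held 18.7 to 24.6 M expected counts. Every member had at least 3893 counts in each library (RPS28), so that counting error was at most 1.60% of a value. The labels were checked on 2 targets of p53: MDM2 was at 860.3 ± 49.3 CPM (the count scaled to one total per library; mean ± SD, n = 3 dishes) in WT, 76.8 ± 4.2 in G245S and 76.7 ± 2.94 in R273H, and CDKN1A, a cell-cycle inhibitor, at 61.1 ± 2.27, 16.1 ± 0.345 and 13.9 ± 0.515. These levels set WT apart from both mutants but were not used to tell G245S from R273H, so which mutant is which rests on the labels. Markers of HEK293 cells were present, with KRT18 at 108 to 121 CPM and NEFM at 258 to 283, whereas KRT19 and PAX8 were at most 0.102. The blood markers HBB and CD3E were at 0 in every library and PTPRC was at most 0.163 CPM; of the fibroblast markers, COL1A1 was at 25 to 34 CPM, and COL1A2 and PDGFRB were under 1. The dishes of a group were pooled at reverse transcription, each group in its own pool, so group and pool cannot be told apart in any comparison, and p-values measure the spread between dishes only. Per the methods of the study, the dishes of a group came from the same cell line. Group and line thus cannot be told apart either. Dish 3 stood apart: pairs of dishes with it gave a chi-square per degree of freedom of 1.88 to 2.62 across genes, against 1.48 to 1.56 for dishes 1 and 2. It held the highest value of its group for 27 of the 32 members in WT and 23 in R273H, but for 5 in G245S, so the counts of members called are also given without it.

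**Figure D1:**
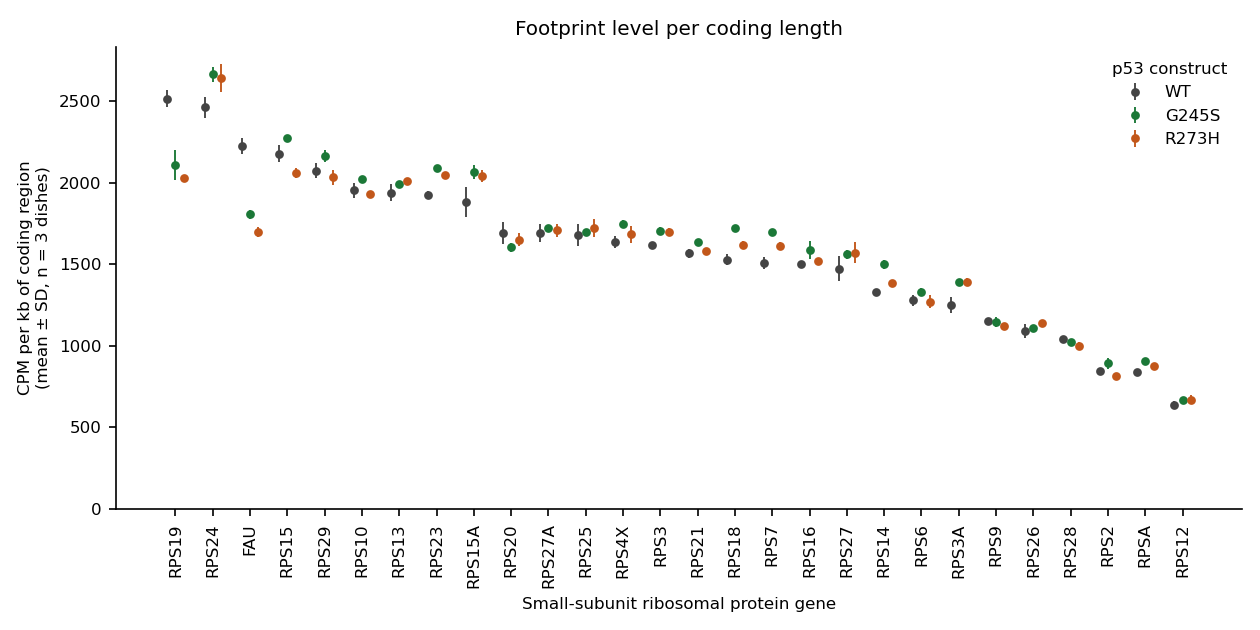
Footprint level per coding length (y axis, CPM per kb of coding region, from 0) of 28 of the 32 genes (x axis, in the order of their WT level) in WT, G245S and R273H. Points are means and bars SD over 3 dishes; levels ran from 639 (RPS12) to 2515 (RPS19) in WT, and RPS19 and FAU are the pair whose mutant points lie far below WT.

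Levels of different genes were compared as CPM per kb of coding region, which allows for length. In WT the 32 members had a median of 1591 CPM per kb and spanned 3.94-fold, and 26 of them lay within 1.5-fold of the median. The order was read over dishes: 22 of the 31 neighbouring pairs overlapped in their WT values, so most single steps in it were smaller than the spread between dishes.

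RPS19 had the highest WT level (2515 ± 52.1 CPM per kb), a head protein needed to mature the 18S rRNA and the gene most often mutated in Diamond-Blackfan anaemia. It overlapped RPS24 (2460 ± 62.9), which was followed by FAU (2223 ± 48.3) and RPS15 (2178 ± 50.5). FAU encodes a ubiquitin-like protein fused to the ribosomal protein eS30. RPS29, a small zinc-binding protein of the head, was at 2073 ± 47.6. From RPS10 (1954), whose protein is ubiquitinated when ribosomes collide, the order ran through members such as RPS13, RPS23, RPS15A, RPS20, RPS27A and RPS25 to RPS4X (1635) and RPS3 (1617) with every neighbour overlapping in its dishes. RPS21, RPS18, RPS7, RPS16 and RPS27 were in the next overlapping run, from 1566 down to 1472 CPM per kb. RPS14 (1331), RPS6 (1278), the target of the S6 kinases, and RPS3A (1249) lay below them.

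Among the lowest levels were those of RPS9 (1151 CPM per kb), RPS26 (1090), RPS28 (1038), RPS2 (842), RPSA (837) and RPS12 (639). RPS12 was last in all 3 groups, and its WT dishes did not overlap those of RPSA. Processed pseudogenes, intronless copies of a gene, can take a share of its reads. The pseudogene rows named after RPS26 held 35.4% to 39.5% of its family's counts, and those of RPS28 21.3% to 23.2%. Those of RPS2 held 14.6% to 16.2%, and the 75 rows of RPSA 13.2% to 15.2%. Members with higher levels had such shares too, among them RPS27 (25.2% to 27.5%) and RPS4X (18.5% to 21.1%). The part of pseudogenes in the order of levels was not tested. The values of these genes are uncertain to that extent. For RPS12 the share was 4.58% to 6.13%, and for FAU and RPS19 at most 1.79% and 2.84%. All 499 pseudogene rows together held 8.53% to 9.05% of the family's counts. In the annotation the spans of 12 members overlap another protein-coding gene, among them RPS10 and its readthrough gene RPS10-NUDT3, and 9 members hold 20 genes of small nucleolar RNAs.

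Between groups the order changed little at the bottom and more at the top and in the middle. RPS20 went from place 12 in WT to place 20 in G245S and place 16 in R273H. RPS19 went from the first place in WT to place 4 in G245S (2107 ± 93.1 CPM per kb) and place 6 in R273H (2031 ± 8.70). FAU went from place 3 to places 11 (1806 ± 27.4) and 13 (1698 ± 30.0), and RPS24 led in both mutants (2663 ± 45.0 and 2639 ± 86.2).

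**Figure D2:**
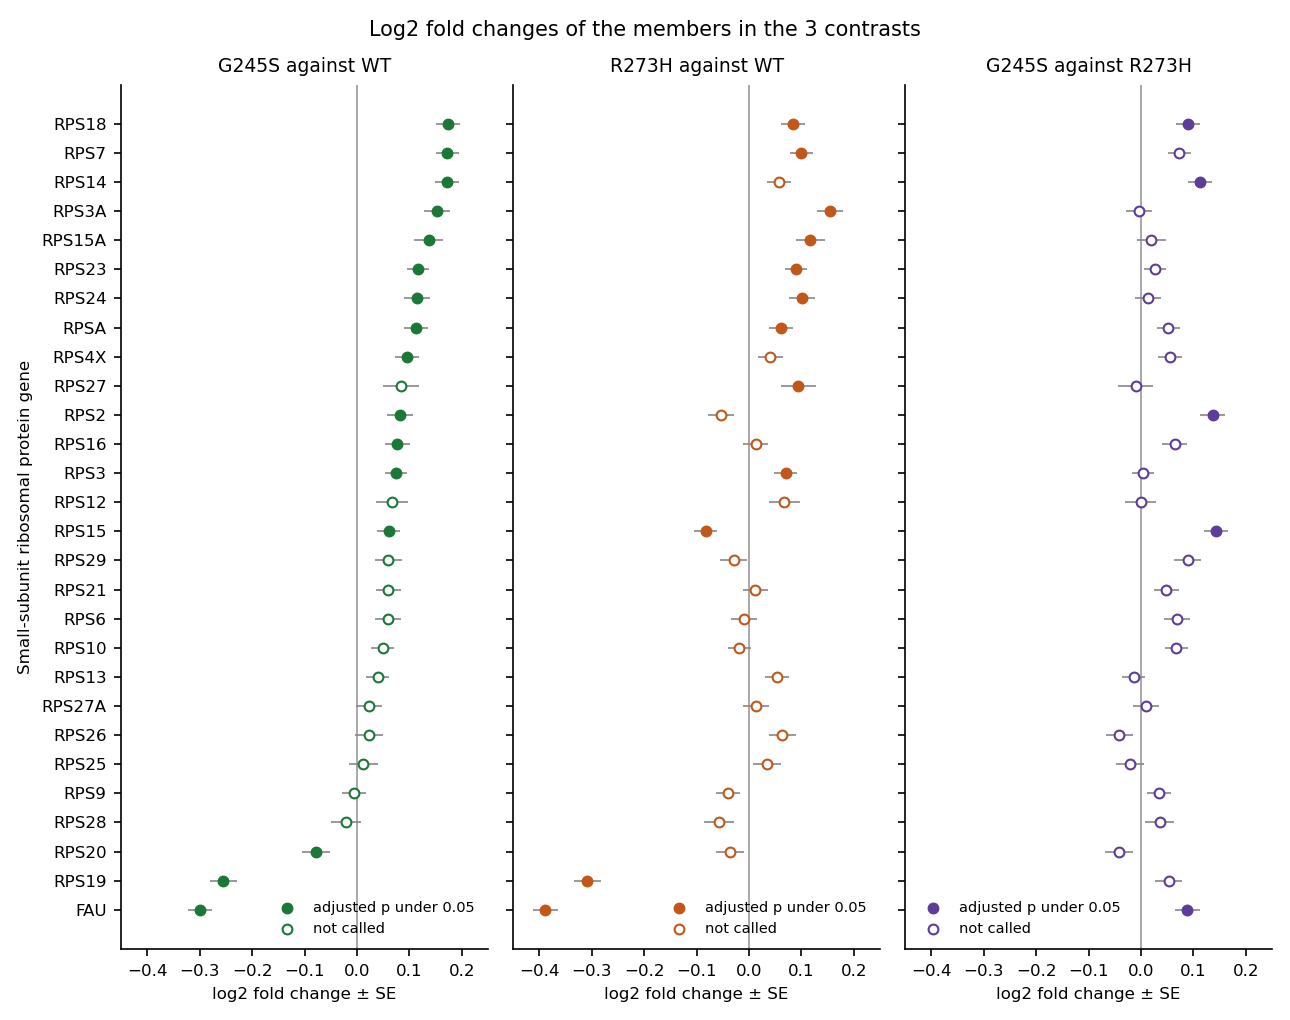
Log2 fold changes (x axis; bars, SE of the fit) of 28 of the 32 genes (y axis, ordered by the change in G245S against WT) in the 3 contrasts; filled points passed an adjusted p of 0.05 and open points did not. FAU and RPS19 lie apart on the left in both contrasts with WT, at -0.26 to -0.39, and the other called members lie between -0.08 and 0.17.

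In cells with G245S p53, 16 members had more footprints than in WT and 3 had fewer, and the changes were small: 0.06 to 0.17 on the log2 scale (4.28% to 12.8%) for those that rose, and falls of 0.30 (FAU), 0.26 (RPS19) and 0.079 (RPS20). The question was whether translation of these mRNAs changes in cells with mutant p53. The 19 called were 59.4% of the members (edgeR quasi-likelihood test on all 9 libraries, two-sided, called at an adjusted p, by Benjamini and Hochberg over 19820 genes, under 0.05). The share over all genes tested was 24.7%, made up of 12.6% that were higher and 12.1% that were lower. Members are abundant, and abundant genes are called more often: of the 967 genes with a mean at least that of the least abundant member (211 CPM), 56.5% were called, 40.7% higher and 15.7% lower, so the members' share was near that background. The median log2 fold change of the members was 0.071, against -0.00069 over all genes and 0.043 over the abundant ones. The lysates were bulk, so a change in every cell and a change in some cells cannot be told apart.

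RPS18, a head protein that faces the large subunit, rose most. It was at 689, 688 and 713 CPM in the WT dishes, 791, 787 and 779 in G245S and 728, 743 and 745 in R273H. The 3 groups did not overlap, with R273H between the others, and the log2 fold change in G245S was 0.17 ± 0.023 (SE; adjusted p = 1.1e-06). RPS7, one of the proteins that can bind MDM2, was at 878, 855 and 896 CPM in WT, 997, 984 and 983 in G245S and 939, 927 and 952 in R273H. All G245S dishes lay above all others here too (0.17 ± 0.022, adjusted p = 1.1e-06).

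RPS14, a platform protein whose loss of 1 copy underlies the anaemia of the 5q deletion syndrome, was at 609, 594 and 606 CPM in WT, 693, 671 and 673 in G245S and 628, 620.3 and 635 in R273H. Its rise in G245S was 0.17 ± 0.023 (adjusted p = 1.6e-06). Every G245S dish was above every dish of the other groups.

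Other members that rose in G245S did so by 0.060 to 0.15 on the log2 scale. In the body and platform they included RPS3A (989 ± 38.9 CPM in WT and 1099 ± 9.86 in G245S; 0.15 ± 0.025, adjusted p = 3.3e-05), RPS15A (0.14 ± 0.028, 0.00059), RPS23 (0.12 ± 0.021, 0.00014), a protein of the decoding center, RPS24 (0.11 ± 0.025, 0.0011), RPSA (0.11 ± 0.023, 0.00050), RPS4X (0.096 ± 0.024, 0.0031) and RPS2 (0.082 ± 0.025, 0.015), which lines the mRNA entry channel. In the head they included RPS16 (0.077 ± 0.024, 0.019), whose tail reaches the tRNA in the P site, RPS3 (0.074 ± 0.021, 0.011) and RPS15 (0.060 ± 0.023, 0.049).

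FAU fell most. It is on chromosome 11 (65120630-65122177, minus strand, GRCh38, 5 exons) and was at 895, 865 and 901 CPM in WT, 724, 729 and 708 in G245S and 669, 672 and 691 in R273H. Both mutant groups lay below WT without overlap, and G245S above R273H; in G245S it fell by 18.8% (log2 fold change -0.30 ± 0.023, adjusted p = 5.6e-11). FAU overlaps SYVN1 on the same strand in the annotation. SYVN1 was at 63.0 ± 4.55 CPM in WT, 64.0 ± 4.42 in G245S and 61.1 ± 1.1 in R273H. How reads in the overlap were assigned is not known, and the part of the overlap in the change of FAU was not tested.

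RPS19 is on chromosome 19 (41860255-41872925, plus strand, 6 exons). It was at 1106.5, 1068 and 1107 CPM in WT, 956, 919.5 and 875 in G245S and 888, 880.3 and 882 in R273H. Every mutant dish lay below every WT dish, and in G245S it fell by 16.2% (-0.26 ± 0.026, adjusted p = 1.6e-08). RPS20, a head protein near the mRNA entry, was at 580.1, 605 and 627 CPM in WT and 569.8, 564 and 582 in G245S. Its fall was -0.079 ± 0.027 (adjusted p = 0.031), but the groups overlapped, and the call was lost without WT dish 2 (adjusted p = 0.086), WT dish 3 (0.21), G245S dish 1 (0.11) or G245S dish 2 (0.16).

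**Figure D3:**
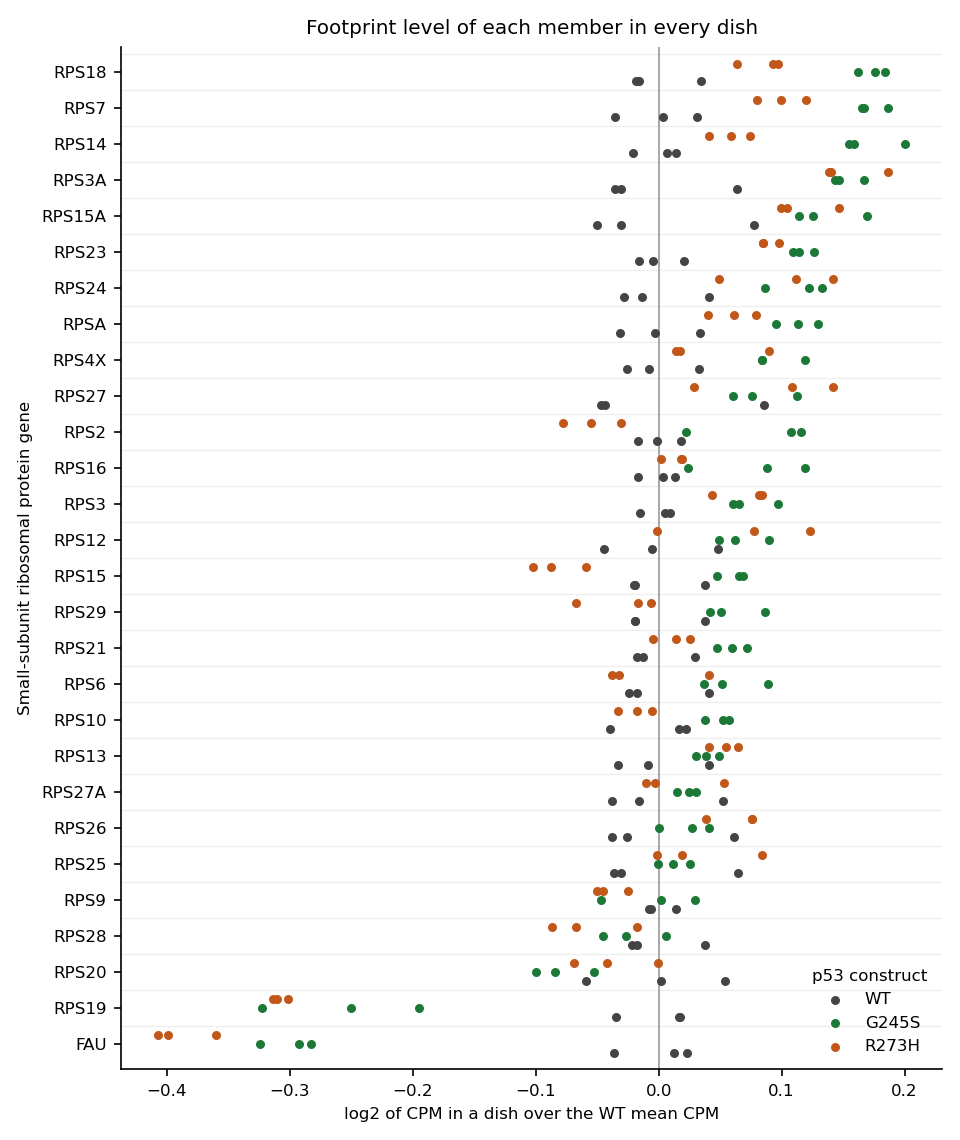
The value of every dish: log2 of the CPM in a dish over the mean CPM of the WT dishes (x axis) for 28 of the 32 genes (y axis, ordered by the change in G245S), with 3 points for each p53 construct. The mutant dishes of FAU and RPS19 all lie far to the left of the WT dishes, and for RPS15 the G245S dishes lie above WT and the R273H dishes below it.

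Without dish 3 of every group, chosen after seeing the data, 27 members were called in G245S, 25 higher and 2 lower, and the median was 0.099. In that fit 21.5% of all genes were called, 11.6% higher and 9.88% lower, and of the abundant genes 62.9%, 49.1% higher and 13.8% lower. Leaving out 1 library at a time, 14 of the 19 calls held in every case. RPS15 lost its call without any one of WT dishes 1 and 2, the 3 G245S dishes and R273H dishes 1 and 2 (adjusted p up to 0.18), RPS16 without WT dish 2 or G245S dish 1 or 2 (up to 0.12), RPS2 without G245S dish 1 or 2 (up to 0.093) and RPS3 without WT dish 2 or G245S dish 1 (up to 0.059).

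In cells with R273H p53, 11 members were higher than in WT and 3 lower. The 14 called were 43.8% of the members, against 28.8% of all genes (14.2% higher and 14.6% lower) and 60.8% of the 967 abundant ones (34.3% higher and 26.5% lower). The median log2 fold change was 0.043, against -0.0024 over all genes and 0.017 over the abundant ones. Both mutants were compared with the same WT libraries, so a WT dish that is off moves both contrasts alike.

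FAU and RPS19 again fell most. From the dishes given above, FAU fell by 23.6% (log2 fold change -0.39 ± 0.023, adjusted p = 1.5e-13) and RPS19 fell by 19.2% (-0.31 ± 0.026, adjusted p = 3.9e-10). RPS15, the head protein needed to export the precursor of the small subunit from the nucleus, was at 934, 935 and 973 CPM in WT, 883, 892 and 909 in R273H and 979, 991 and 993 in G245S. The R273H dishes were all below WT (-0.083 ± 0.022, adjusted p = 0.0059) and the G245S dishes all above, which made RPS15 the 1 member called in opposite directions.

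RPS3A, a platform protein beside the mRNA exit, rose most in R273H. It was at 968, 965 and 1034 CPM in WT and 1090, 1089 and 1126 in R273H, without overlap (0.16 ± 0.025, adjusted p = 1.9e-05). Its pseudogene rows, 53 in number, held 20.3% to 22.3% of the family's counts. RPS15A was at 708, 718 and 774 CPM in WT, 786, 788 and 812 in R273H and 794, 799.9 and 825 in G245S, with both mutants above WT (R273H: 0.12 ± 0.028, adjusted p = 0.0021).

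RPS24 was at 950.4, 941 and 987 CPM in WT, 1037, 993 and 1059 in R273H and 1052, 1019 and 1045 in G245S, again without overlap between WT and either mutant (R273H: 0.10 ± 0.025, adjusted p = 0.0027). Others that rose in R273H were RPS7 (0.10 ± 0.022, 0.0011), RPS27 (0.094 ± 0.034, 0.043), RPS23 (0.089 ± 0.021, 0.0020), RPS18 (0.084 ± 0.022, 0.0052), RPS3 (0.070 ± 0.021, 0.014) and RPSA (0.060 ± 0.023, 0.047).

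Without dish 3 of every group, 18 members were called in R273H, 15 higher and 3 lower. The shares called were then 25.9% of all genes, 13.1% higher and 12.7% lower, and 66.4% of the abundant genes, 38.9% higher and 27.5% lower. With 1 library left out at a time, 10 of the 14 calls held in every case. RPSA lost its call without WT dish 1 or 2, G245S dish 1 or 2 or any R273H dish (adjusted p up to 0.23), RPS27 without WT dish 1 or 2, any G245S dish or R273H dish 2 or 3 (up to 0.19) and RPS3 without WT dish 2 or R273H dish 1 or 3 (up to 0.075). The median fell to 0.023 without WT dish 2 and to 0.025 without R273H dish 3, and was 0.067 without WT dish 3.

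Set side by side, 10 members rose in both mutants, among them RPS3, RPS3A, RPS7, RPS15A, RPS18, RPS23, RPS24 and RPSA, and FAU and RPS19 fell in both. RPS2, RPS4X, RPS14 and RPS16 were among those called higher in G245S alone, RPS20 lower in G245S alone and RPS27 higher in R273H alone. A call in 1 mutant alone is not a difference between mutants, which the contrast of G245S with R273H tested.

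Between the mutants, 5 members were called and all 5 were higher in G245S (15.6% of the members). The share called over all genes was 2.59%, with 1.86% higher and 0.732% lower in G245S; over the 967 abundant genes the shares were 13.7%, 12.8% and 0.827%. RPS15 differed most, by 0.14 ± 0.022 on the log2 scale (adjusted p = 0.00046), from the dishes given above. RPS2 was at 802, 798 and 752 CPM in G245S, 713, 725 and 702 in R273H and 749.7, 739.6 and 732 in WT. Its G245S dishes were all above WT and the R273H dishes all below, although R273H was not called against WT, and the difference between mutants was 0.14 ± 0.025 (adjusted p = 0.0019). RPS14 (0.11 ± 0.023, adjusted p = 0.0047), RPS18 (0.090 ± 0.022, 0.025) and FAU (0.089 ± 0.023, 0.035) followed. RPS2 kept its call in all 18 alternatives tried, RPS14 in all but 1, without G245S dish 1 (adjusted p = 0.059), and RPS15 in all but 1, described with the GC content below. RPS18 lost its call without G245S dish 1 or 2 or any R273H dish (adjusted p up to 0.16), and FAU without G245S dish 1 or 2 or R273H dish 1 or 2 (up to 0.20). Both also lost it with upper-quartile normalization and without the filter on low counts, and FAU with the length and GC trend removed. Over all 18 alternatives the adjusted p of FAU reached 0.28. Without dish 3 of every group, 15 members were called, all higher in G245S, where 5.17% of all genes were called, 3.63% higher and 1.54% lower, and 29.7% of the abundant genes, 26.8% higher and 2.90% lower.

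The 12 members called in neither mutant had log2 fold changes of -0.022 to 0.067 in G245S and -0.057 to 0.068 in R273H. They include RPS6 (954 ± 23.9 CPM in WT), RPS10 (967 ± 22.8), RPS13 (878 ± 23.2), RPS9 (669.8 ± 5.68) and RPS21 (390.0 ± 7.11). They also include RPS12 (253 ± 8.16 CPM), RPS25 (630.4 ± 25.2), which some viral mRNAs need to start translation, RPS26 (376 ± 14.2) and RPS28 (215 ± 4.97), which touch the mRNA at its exit, RPS29 (348 ± 8.0) and RPS27A (791 ± 25.9), a fusion of ubiquitin with a ribosomal protein. The SE was 0.021 to 0.031 for these genes in both contrasts. That they were not called depends on the fit. With the length and GC trend removed, as described below, their log2 fold changes were 0.056 (RPS9) to 0.22 (RPS29) in G245S. In R273H they were then 0.028 (RPS6) to 0.17 (RPS26). Of all 32 members, 29 were called in G245S and 26 in R273H in that fit.

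For the lists that follow, except the assembly factors, the shares to read the counts against are those of the abundant genes. These are 40.7% higher and 15.7% lower in G245S, and 34.3% and 26.5% in R273H. No difference between lists was tested. By place in the subunit, 6 of the 14 head genes rose and 2 fell in G245S, and 4 rose and 2 fell in R273H (medians 0.060 and 0.013 on the log2 scale). Of the 18 body and platform genes, 10 rose and 1 fell in G245S, and 7 rose and 1 fell in R273H (medians 0.090 and 0.056). Of the 15 genes for universal proteins, which bacteria also have, 10 rose and 1 fell in G245S and 6 rose and 1 fell in R273H; of the 17 shared by eukaryotes and archaea, 6 rose and 2 fell, and 5 rose and 2 fell. Of the 9 members that can bind MDM2, RPS3, RPS7, RPS14 and RPS15 rose and RPS20 fell in G245S, and RPS3, RPS7 and RPS27 rose and RPS15 fell in R273H; the log2 fold change of MDM2 itself was -3.48 and -3.49. Of the 11 genes of Diamond-Blackfan anaemia, RPS7, RPS15A and RPS24 were among those that rose in both mutants, RPS27 rose in R273H, RPS19 fell in both and RPS20 fell in G245S.

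The members' part of all footprints in a library was 2.40% ± 0.0335 in WT, 2.46% ± 0.0152 in G245S and 2.41% ± 0.0179 in R273H (SD, n = 3 dishes). All 3 G245S dishes were above those of both other groups (exact permutation test, two-sided, p = 0.1, the smallest that 3 dishes against 3 allow; 0.12 adjusted over 6 tests), and R273H overlapped WT (p = 0.4 in the same exact test). The ratio of small-subunit to large-subunit counts was 0.649 ± 0.00098 in WT, 0.640 ± 0.0015 in G245S and 0.636 ± 0.0031 in R273H. It was lower in every mutant dish than in any WT dish, and the exact permutation p was 0.1 in each contrast (0.12 adjusted over 6 tests). The summed counts include FAU and RPS19, the members that fell most, and their part in the ratio was not tested. By gene, the median log2 fold change in G245S was 0.071 for the members and 0.067 for large-subunit genes. In R273H these medians were 0.043 and 0.031.

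**Figure D4:**
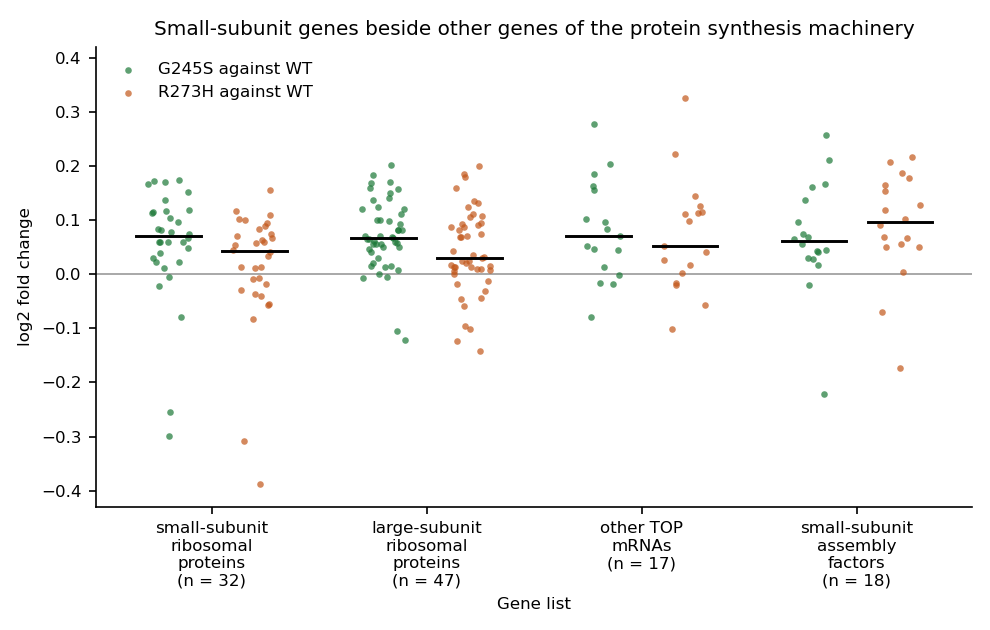
Log2 fold changes (y axis) of single genes in the small subunit, the large subunit, other TOP mRNAs and small-subunit assembly factors (x axis), in G245S and R273H against WT; points are spread sideways for view and black lines are medians. The medians lie between 0.031 and 0.097, and the lowest points are FAU and RPS19.

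Other genes of the same machinery were counted in the same way. Of the 47 genes for large-subunit proteins, 24 rose and 2 fell in G245S (55.3% called) and 20 rose and 4 fell in R273H (51.1%), where 56.5% and 60.8% of the abundant genes were called, with medians of 0.067 and 0.031 on the log2 scale. RPL5, which carries the 5S rRNA, rose in both (1232 ± 41.4 CPM in WT, 1416 ± 19.5 in G245S and 1402 ± 27.0 in R273H), RPL17 rose in G245S (0.18 ± 0.024) and RPL21 in R273H (0.20 ± 0.027). RPL41, the smallest, fell in both (-0.12 ± 0.040 and -0.14 ± 0.039), RPL23A fell in G245S (-0.11 ± 0.023) and RPL35 in R273H (-0.12 ± 0.027). No large-subunit gene fell by as much as FAU or RPS19: the lowest log2 fold changes were -0.12 in G245S and -0.14 in R273H.

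Of 17 other TOP mRNAs, which encode elongation factors and other translation proteins, 8 rose and 1 fell in G245S and 9 rose and 1 fell in R273H (52.9% and 58.8% called, medians 0.072 and 0.052). EIF3E, a subunit of an initiation factor, rose by 0.28 ± 0.032 and 0.33 ± 0.031, the nucleolar protein gene NPM1 rose by 0.20 ± 0.021 and 0.22 ± 0.021, and BTF3 fell (-0.080 ± 0.025 and -0.10 ± 0.025). Of 18 assembly factors of the small subunit, 6 rose and 1 fell in G245S and 9 rose and 1 fell in R273H (38.9% and 55.6% called, medians 0.061 and 0.097). Those named below were at 59.2 (TSR2) to 95.9 CPM (NOB1) in WT, under the 211 CPM of the abundant genes. Over all genes tested, 24.7% and 28.8% were called, and a share for genes of their abundance is not given here. NOC4L rose in both (0.26 ± 0.046 and 0.21 ± 0.045), NOB1, the nuclease that makes the final cut of the 18S rRNA, rose in G245S (0.21 ± 0.033) and DIMT1, which methylates that rRNA, in R273H (0.22 ± 0.037). The factor that fell in both was TSR2 (-0.22 ± 0.045 and -0.17 ± 0.044), the chaperone that delivers the RPS26 protein to the ribosome.

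**Figure D5:**
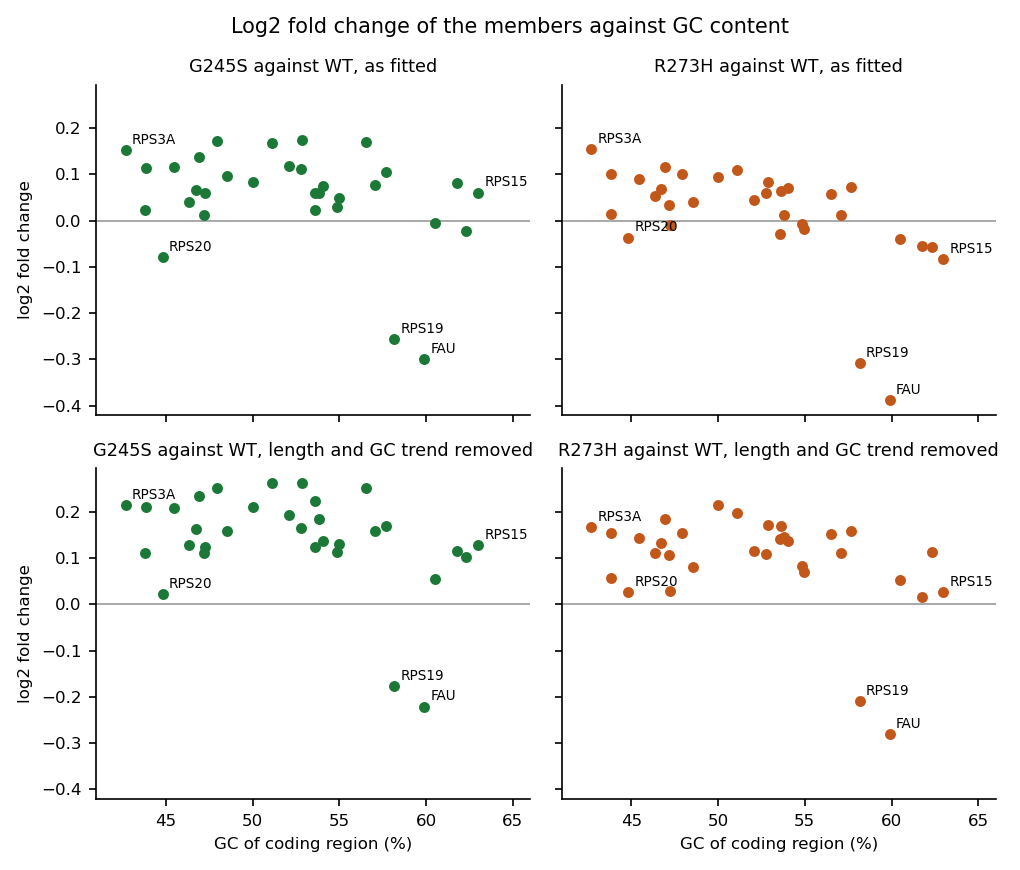
Log2 fold change (y axis) of the 32 genes against the GC content of their coding region (x axis, %), in G245S (left) and R273H (right) against WT, as fitted (top) and with the length and GC trend of each library removed (bottom). In the top right panel FAU and RPS19 lie lowest, and the 4 genes richest in GC, RPS15, RPS28, RPS2 and RPS9, are all below 0; in the bottom panels 30 of 32 points are above 0, and FAU and RPS19 are the 2 below it.

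The changes of the members moved with the GC content of their coding regions, which ran from 42.7% (RPS3A) to 63.0% (RPS15). Over the 32 members, all read from the same libraries, Spearman's rho between log2 fold change and GC was -0.27 in G245S, -0.60 in R273H and 0.55 for G245S against R273H. Members are also short: their median coding region was 445.5 bases, against 1395 for the 13615 protein-coding genes tested. A smooth trend of each library on coding length and GC was therefore estimated over 10883 genes and taken out in the fit. With it removed, rho with GC was -0.31 in G245S, no weaker than the -0.27 before. It was -0.32 in R273H and 0.056 between the mutants, both weaker than before. Then 29 members were called in G245S, 27 higher and 2 lower, with a median of 0.16, and 26 in R273H, 24 higher and 2 lower, with a median of 0.11. The shares called also moved over the other genes. In G245S, 27.4% of all genes were then called, 17.4% higher and 10.0% lower, and 65.4% of the abundant genes, 57.0% higher and 8.38% lower (median 0.087). In R273H, the shares were 29.4%, 16.3% and 13.1% of all genes, and of the 967 abundant genes 384 were called higher and 174 lower (57.7% in all, median 0.040). Removing the trend thus turned RPS20 in G245S (0.022, adjusted p = 0.55) and RPS15 in R273H (0.027, adjusted p = 0.65) from called falls to values above 0. Between the mutants, RPS15 lost its call (0.10, adjusted p = 0.19), as did FAU. FAU (-0.22 and -0.28 with the trend removed) and RPS19 (-0.18 and -0.21) were the 2 members called lower against WT in both fits. The part of length and GC in the changes of the other members was not tested further.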

How the data were processed

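Footprints of 9 dishes (3 each with WT, G245S and R273H p53) were counted by the authors, who trimmed reads (Trim Galore, Cutadapt), removed rRNA (SortMeRNA) and aligned to GRCh38 (STAR); UMI-tools was used where applicable. The deposited values are expected counts per gene, unscaled and often not whole. The counting tool, annotation, strand and handling of reads with several positions are not given in the sources used here, so copies and overlapping genes are uncertain.

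Counts were rounded and tested with edgeR 4.0.16 (R 4.3.3; TMM, filterByExpr, quasi-likelihood test, group as the only term, 6 residual degrees of freedom, biological coefficient of variation 2.58%). The fit was checked on simulated data. CPM use TMM-scaled totals (factors 0.987 to 1.01). Coding length, GC content and overlaps come from GENCODE v44 and the trend from mgcv 1.9.3, over genes with a mean of at least 100 counts; DESeq2 1.42.0 was an alternative. Figures used matplotlib 3.10.9.

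Counts, medians and tests cover all 32 members, of which 4 are not reported here by name. Those with the 4 largest called changes in each direction against WT, and between mutants, are given by dish, and the 2 largest each way of each other list are named. The members and lists were chosen with earlier results of these data known. Dish numbers were not treated as pairs in the main fit. No spike-in or matched RNA-seq was used, so footprints do not separate mRNA amount from its translation.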

Additional observations from a re-analysis of the deposited data

Results flagged for a closer look

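The changes of 5 members against the shared WT libraries differed between the mutants, by the contrast of G245S with R273H (edgeR, adjusted p under 0.05). The log2 difference was 0.14 for RPS15 (higher in G245S and lower in R273H than in WT), 0.14 for RPS2, 0.11 for RPS14, 0.090 for RPS18 and 0.089 for FAU, each higher in G245S. All 3 G245S dishes lay above all 3 R273H dishes for each of these genes. Groups of 3 dishes are too small for a check of single outlying samples.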

How the results depend on the processing

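In 18 alternatives, 14 of 19 calls in G245S, 9 of 14 in R273H and 1 of 5 between the mutants held throughout. With the length and GC trend removed, 29 members were called in G245S (median 0.158) and 26 in R273H (median 0.115), and RPS20 in G245S (0.022) and RPS15 in R273H (0.027) reversed; the cause was not tested. Without dish 3 of every group, chosen after seeing the data, the G245S median was 0.099 and 15 members were called between the mutants. That count, 5 as reported, was 3 with upper-quartile normalization, 3 without the filter on low counts and 8 with DESeq2, and ran from 2 (without G245S dish 1) to 9 (without WT dish 3) when 1 library was left out; it was 3 without G245S dish 2, R273H dish 1 or R273H dish 2 and 8 without G245S dish 3. With the dish number as a replicate block, 25, 19 and 10 members were called in G245S, R273H and between the mutants. Same-numbered dishes correlated at 0.042 to 0.229, over 0.1 in 4 of 9 pairs, and 9 of 9 libraries correlated best with their own number. The main fit did not take the numbers as pairs, and whether dishes of one number share an effect was not tested. Lengths from RefSeq proteins were not run. No p under 0.1 was possible for shares and ratios.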
